A study of Homo sapiens with 6 samples.

Results

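The clustered histone genes are the genes whose symbols begin with HIST1H, HIST2H, HIST3H or HIST4H. Of 89 such rows in the count tables, the 17 with 30 or more reads summed over all 6 libraries are described here, out of 56638 gene symbols in all and 18224 that reach the same minimum. The sum over the libraries chose them and is not a finding. The 17 are 1 linker histone H1 gene, 4 H2A genes, 9 H2B rows of which 2 are annotated as transcribed pseudogenes, 2 H3 genes and 1 H4 gene. The RNA came from HCT116, a human cell line from a colorectal carcinoma, at passage 16 to 19. There were 3 libraries labelled ZFP90 KO, made from cells in which guide RNAs had been aimed at exon 3 of the zinc-finger gene ZFP90, and 3 control libraries from the same line. The labels do not say whether the KO cells were a clone or a pool, what guide the controls carried, or whether the replicates were separate cultures, so the p-values rest on a spread between libraries that may be technical.

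Histones are the proteins around which DNA is wound: pairs of H2A, H2B, H3 and H4 form the nucleosome core, and H1 binds the linker DNA between cores. Most clustered histone genes are transcribed in S phase, when newly made DNA has to be packaged. Their mRNAs are unusual in having no poly(A) tail and end instead in a short stem-loop bound by the stem-loop binding protein SLBP. Some of these genes can also be read through to a downstream poly(A) site, and that form is known from differentiated and non-dividing cells. The TruSeq RNA kit named in the labels captures poly(A) RNA, so transcripts that end at the stem-loop are poorly represented in such libraries.

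The stem-loop shows which members have an annotated transcript that runs on past it. A 16-letter pattern, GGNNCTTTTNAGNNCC on the transcript strand, was searched in the GENCODE release 29 transcripts (GRCh38). It occurred in 49 of 123 transcripts of HIST-named genes (39.8%) and in 79 of 206571 other transcripts (0.038%). Of the 17 members, 12 had it, followed by between 39 and 5804 further annotated bases. In 6 members the core had the letters shown for HIST1H2AC, among them HIST3H2A, HIST1H2BN, HIST2H2BF and HIST1H3H. The following lines give the core in capitals with 5 bases on either side, for a member of each version of the core and for the members described below.
HIST1H2AC: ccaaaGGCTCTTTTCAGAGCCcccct
HIST2H2BE: ccaaaGGCTCTTTTCAGAGCCaccca
HIST1H2BC: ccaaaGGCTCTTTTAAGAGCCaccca
HIST1H2BD: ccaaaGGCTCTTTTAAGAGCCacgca
HIST1H2AG: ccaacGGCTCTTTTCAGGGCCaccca
HIST4H4: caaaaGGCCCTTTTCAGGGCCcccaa

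The annotated transcript continued for 1128 bases after the stem-loop in HIST1H2AC, 1729 in HIST2H2BE, 1761 in HIST1H2AG and 116 in HIST1H2BC. These letters were not found in the annotated transcripts of HIST1H2BK, HIST1H1C, HIST1H3E, HIST1H2BJ and HIST1H2AK. For HIST1H2BK, HIST1H1C and HIST1H2AK the annotation holds a single transcript of 381, 642 and 393 bases. A stem-loop beyond the end of so short an annotated transcript could not be found, so the search does not show that these genes lack it.

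Of the 17 members, 15 had a promoter entry in the RefSeq table (GRCh38.p14). The 250 bases before the start were searched on both strands for the octamer ATTTGCAT, known from H2B promoters, the CCAAT box (CCAAT), the TATA box (TATAAA) and AAACACA, an element known from H1 promoters. TATAAA and its reverse complement overlap where both fall within TTTATAAA. The octamer was in 7 of 15 (46.7%, and in 1.63% of all 35116 promoters), CCAAT in 14 of 15 (93.3%, against 32.01%), TATAAA in 10 of 15 (66.7%, against 10.72%) and AAACACA only in HIST1H1C (6.7%, against 4.82%). The windows of HIST1H2AC and HIST1H2BC overlap, as do those of HIST1H2AG and HIST1H2BJ and those of HIST1H2BN and HIST1H2AK. A site in an overlap was counted for both genes, so these counts are not of separate sites. A match is a description of letters, not of a bound site. The windows are shown for the 3 members that passed the test below and for HIST1H2BN, which did not, with all of these matches in capitals. They lie at chr6:26056471-26056720 on the minus strand (HIST1H1C), chr6:26123922-26124171 on the plus strand (HIST1H2AC), chr1:149886683-149886932 on the minus strand (HIST2H2BE) and chr6:27838319-27838568 on the plus strand (HIST1H2BN). The HIST1H2AC window overlaps that of HIST1H2BC, which is read in the other direction. HIST1H2AC and HIST2H2BE hold the octamer, CCAAT and TATAAA, HIST1H1C holds CCAAT and 2 copies of AAACACA, and HIST1H2BN holds only CCAAT.
HIST1H1C: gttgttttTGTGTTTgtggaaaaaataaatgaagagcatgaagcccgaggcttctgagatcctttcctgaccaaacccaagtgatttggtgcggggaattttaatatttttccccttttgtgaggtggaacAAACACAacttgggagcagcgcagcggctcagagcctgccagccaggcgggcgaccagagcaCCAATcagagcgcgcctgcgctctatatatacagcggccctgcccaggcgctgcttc
HIST1H2AC: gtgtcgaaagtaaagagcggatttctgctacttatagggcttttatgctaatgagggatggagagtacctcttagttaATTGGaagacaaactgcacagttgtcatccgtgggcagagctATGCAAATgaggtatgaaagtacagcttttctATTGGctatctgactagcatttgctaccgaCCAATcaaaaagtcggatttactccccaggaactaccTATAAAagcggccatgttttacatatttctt
HIST2H2BE: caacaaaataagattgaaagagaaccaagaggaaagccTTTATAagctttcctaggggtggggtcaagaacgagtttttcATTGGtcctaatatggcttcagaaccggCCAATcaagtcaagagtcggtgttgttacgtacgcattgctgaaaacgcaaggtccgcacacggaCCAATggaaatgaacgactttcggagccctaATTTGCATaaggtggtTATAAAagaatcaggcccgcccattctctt
HIST1H2BN: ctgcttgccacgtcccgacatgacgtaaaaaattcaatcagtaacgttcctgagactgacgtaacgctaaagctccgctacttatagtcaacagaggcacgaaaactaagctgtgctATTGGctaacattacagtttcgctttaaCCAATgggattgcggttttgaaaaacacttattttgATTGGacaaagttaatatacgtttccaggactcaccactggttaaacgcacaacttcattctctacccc

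Reads in genes numbered between 14450905 and 17012910 in the libraries labelled KO and between 13424356 and 16215490 in the controls. On those totals, without TMM adjustment, 3 reads corresponded to 0.176 to 0.224 CPM (the usual scaled count). That floor covers counting error only, and all other CPM values use TMM-adjusted library sizes. ZFP90 itself was higher in the libraries labelled KO, at 85.7 ± 4.73 CPM, against 45.95 ± 2.55 CPM in the controls (SD, n = 3 each), and a gene-level count does not show whether the reading frame is disrupted. Control replicate 2 stood apart: over the non-histone genes of chromosome 6, where 11 of the 17 members lie, its median level was 87.8% of the other controls. It was 103.6% on chromosome 1, which holds 5 members, and 102.7% on chromosome 12, which holds HIST4H4. Among chromosomes without members, it was 80.8% on chromosome 7, 75.2% on 8, 70.2% on 9, 52.9% on X, 51.3% on Y and 53.4% on M. Values of chromosome 6 members are given with and without control replicate 2. The 13 tested non-histone genes within the chromosome 6 histone cluster showed no deficit of that library in sum. They had 322.9 CPM in control replicate 2, against 324.9 and 309.1 CPM in control replicates 1 and 3. The chromosome correction used below takes the chromosome-wide medians, so it may overcorrect members in that cluster. Whether the deficit reaches these members was not tested. Of 6 epithelial markers 5 were tested, with summed levels of 2668 to 2790 CPM in libraries labelled KO and 2692 to 2831 CPM in controls, and KRT18 fell by 0.23 on the log2 scale (edgeR adjusted p = 0.0417). That call was lost with the replicate block, DESeq2, and without KO replicate 2, KO replicate 3 or control replicate 3 (adjusted p from 0.0641 to 0.141). VIL1 had 8 reads in all. Of 12 markers of other cell types 6 reached 30 reads, with summed levels of 74.3 to 93.5 CPM in libraries labelled KO and 72.5 to 93.2 CPM in controls. Most of that was the collagen gene COL1A1. CD3E and PECAM1 had 0 reads and PTPRC had 1, and ALB was called higher at 1.46 ± 0.062 CPM in libraries labelled KO, against 0.515 ± 0.081 CPM in controls (SD, n = 3 each).

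Clustered histone RNA was sparse and, in sum, lower in the libraries labelled KO. The 17 members together took 61.7, 56.0 and 65.4 CPM in libraries labelled KO, against 81.7, 69.8 and 86.5 CPM in controls. Every library labelled KO lay below every control, and the mean was 61.03 ± 4.72 CPM against 79.3 ± 8.64 CPM (SD, n = 3 each), or 76.9% of the controls. The linker histone H1, the H2A sum and the H2B sum were at 64.3%, 69.3% and 85.3% of the controls. The groups did not overlap for H1 and H2A, and they overlapped for H2B, H3 and H4. The 14 members that did not pass the test below summed to 40.1 ± 3.30 CPM in libraries labelled KO and 46.1 ± 4.56 CPM in controls (SD, n = 3 each), with overlapping groups. No test was made over these sums, since the members were chosen with results of these data known. In bulk RNA, fewer cells carrying these transcripts and less of the transcript per cell cannot be told apart.

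**Figure D1:**
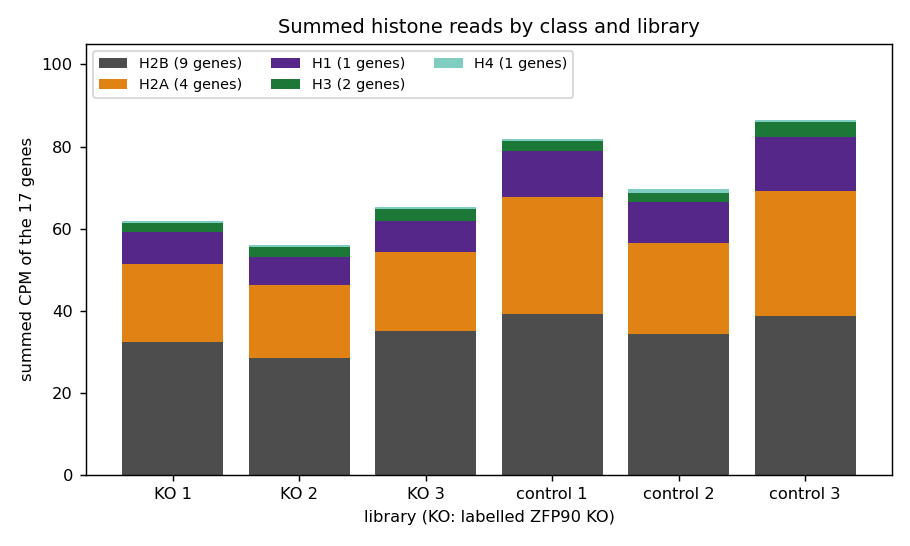
Summed CPM of the 17 histone genes in each library, stacked by histone class, with the libraries labelled ZFP90 KO on the left and the controls on the right. H2B and H2A make up most of every bar, and the 3 KO bars (56.0 to 65.4) are all shorter than the 3 control bars (69.8 to 86.5).

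In the test over all 18224 genes, 3 of the 17 members fell and 0 rose at an adjusted p under 0.05. The members that fell were the H1 gene HIST1H1C, the H2A gene HIST1H2AC and the H2B gene HIST2H2BE. That is 17.6% of the members called lower, where 10.2% of all genes tested were called lower, 8.65% higher and 18.8% in either direction. The members' share in either direction is therefore near that of all genes. Over all genes 1855 were lower and 1577 higher, and with libraries scaled by size alone 2350 were lower and 1000 higher. The log2 fold change was below 0 for 15 members and above 0 for 2, with a median of -0.45, where 48.9% of all genes lay below 0 and their median was 0.01. The 9 members with over 100 reads had a median of -0.22. Members below and above 0 numbered 13 and 4 without KO replicate 3, control replicate 2 or control replicate 3. They numbered 14 and 3 without KO replicate 1 or KO replicate 2. All 3 libraries labelled KO lay below all 3 controls for 5 members, or 29.4%, where the same held for 19.3% of all genes tested. At an unadjusted p under 0.05 there were 5 members. The share of all genes at that threshold was not counted, so this number is not read as a result about the members. The 8 members with under 100 reads had a median standard error of 0.44 on the log2 scale, so that most fold changes of their size could not be told from the spread at this depth.

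**Figure D2:**
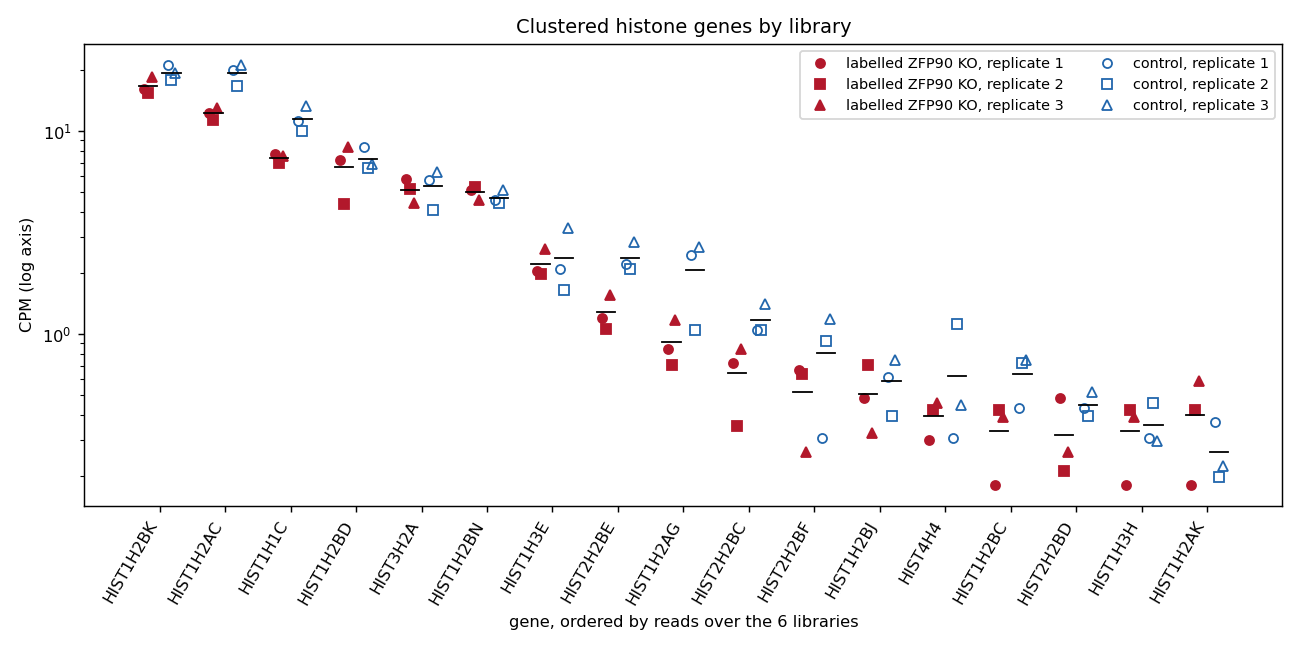
CPM of each of the 17 genes in each library on a log axis, ordered by total reads, with libraries labelled ZFP90 KO as filled red symbols left of the open blue controls and black bars for group means. HIST1H2AC, HIST1H1C and HIST2H2BE separate completely, as do HIST2H2BC and HIST1H2BC, which did not pass the test. HIST1H2BD, HIST3H2A and HIST1H2BN overlap.

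HIST1H1C, a linker histone gene (chr6:26055787-26056428 in GRCh38, GENCODE release 29, minus strand), was the only H1 gene to reach 30 reads. It had 7.73, 6.95 and 7.58 CPM in libraries labelled KO, against 11.2, 10.1 and 13.3 CPM in controls. The 3 libraries labelled KO lay close together and below all controls. The log2 fold change was -0.63 (SE 0.13; edgeR adjusted p = 0.00952), from 128, 98 and 116 reads in libraries labelled KO and 182, 153 and 179 in controls. Without control replicate 2 it was -0.72 (edgeR adjusted p = 0.000284), and the call held with any 1 library left out. The other protein-coding H1 genes were near or at 0: HIST1H1E had 12 reads over all libraries, HIST1H1D 5, HIST1H1A and HIST1H1T 1 each and HIST1H1B 0, although all the 50-base stretches of their transcripts were found in no other annotated gene.

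HIST1H2AC, an H2A gene (chr6:26124145-26139116, plus strand), had the second largest number of reads, 22.5% of those of all members. Its level was 12.3, 11.4 and 13.1 CPM in libraries labelled KO, against 20.03, 16.7 and 21.2 CPM in controls. The groups did not overlap, and control replicate 2 was the lowest control. The log2 fold change was -0.65 (SE 0.11; edgeR adjusted p = 0.00396), and -0.74 without control replicate 2. With any 1 library left out it lay between -0.74 and -0.58, always past the threshold.

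HIST1H2AG, another H2A gene (chr6:27133042-27135291, plus strand), had the lowest log2 fold change of the 17, -1.16 (SE 0.38), but did not pass the test (edgeR adjusted p = 0.0615). It had 0.846, 0.709 and 1.18 CPM in libraries labelled KO, against 2.47, 1.05 and 2.68 CPM in controls. Control replicate 2, at 16 reads where the other controls had 40 and 36, fell among the libraries labelled KO. Without that library the log2 fold change was -1.48 (edgeR adjusted p = 0.000702), and with its counts corrected per chromosome it was -1.22 (edgeR adjusted p = 0.0127). The corrected value rests on the chromosome-wide median, a deficit that the summed neighbours in the histone cluster did not show. A call was also made with the replicate number as a block (edgeR adjusted p = 0.0246), library size alone (0.0227), upper-quartile scaling (0.0415) and no count filter (0.00162), and with no other alternative run. With any library other than control replicate 2 left out, the edgeR adjusted p lay between 0.102 and 0.181.

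The remaining H2A members behaved otherwise. HIST3H2A, on chromosome 1, had 5.80, 5.17 and 4.44 CPM in libraries labelled KO, against 5.73, 4.08 and 6.26 CPM in controls, with a log2 fold change of -0.05 (95% interval -0.47 to 0.36), and -0.22 without control replicate 2. HIST1H2AK had 0.398 ± 0.205 CPM in libraries labelled KO and 0.264 ± 0.093 CPM in controls (SD, n = 3 each), from 30 reads in all. Its log2 fold change was 0.54, and 0.36 without control replicate 2. None of its 50-base stretches was free of a match in another gene, and in GENCODE release 29 all its 393 exon bases overlap HIST1H2BN on the other strand, so its reads cannot be assigned with confidence.

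**Figure D3:**
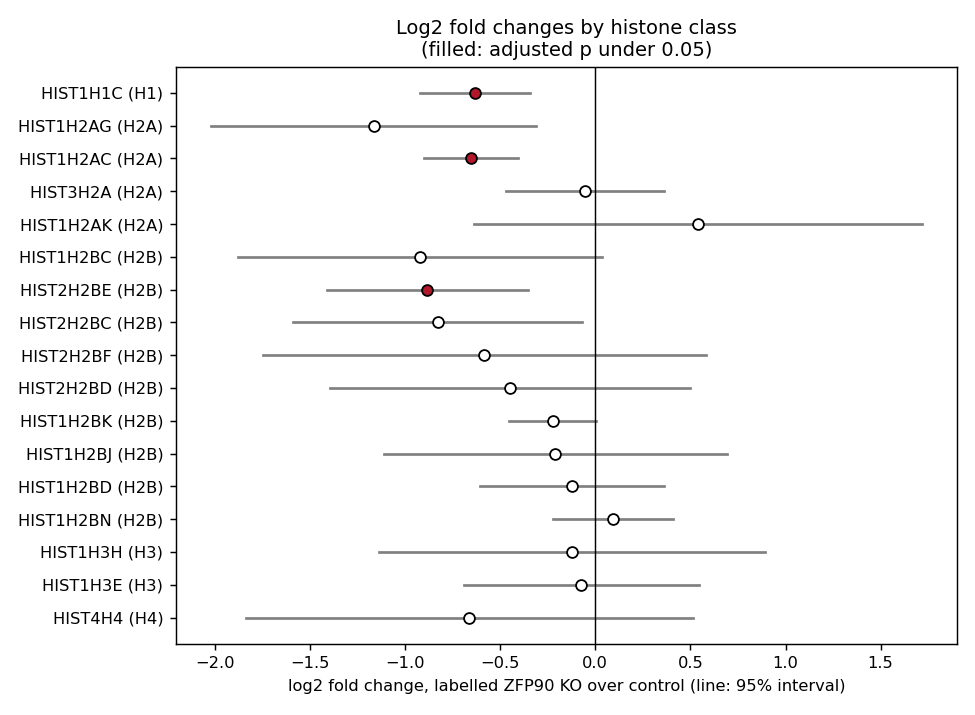
Log2 fold change of each of the 17 genes, libraries labelled ZFP90 KO over control, with 95% intervals, grouped by histone class and filled where the adjusted p was under 0.05. The 3 filled points lie at -0.63 (HIST1H1C), -0.65 (HIST1H2AC) and -0.88 (HIST2H2BE), and the interval of HIST1H2AG also lies below 0 although its adjusted p does not pass.

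Among the 9 H2B rows, HIST2H2BE was the only gene to pass the test. It lies at chr1:149884459-149886652 (minus strand), away from the chromosomes on which control replicate 2 was low. It had 1.21, 1.06 and 1.57 CPM in libraries labelled KO, against 2.22, 2.11 and 2.83 CPM in controls, without overlap. The log2 fold change was -0.88 (SE 0.24; edgeR adjusted p = 0.03), from 20, 15 and 24 reads in libraries labelled KO and 36, 32 and 38 in controls. The call was lost with DESeq2 (adjusted p = 0.0595) and without KO replicate 1, KO replicate 2, control replicate 1 or control replicate 3 (edgeR adjusted p from 0.0586 to 0.107), always with a negative fold change.

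HIST1H2BK (chr6:27146418-27146798, minus strand) held the most reads of any member, 25.8%. It had 16.2, 15.4 and 18.4 CPM in libraries labelled KO, against 21.2, 17.8 and 19.3 CPM in controls. KO replicate 3 lay above control replicate 2, so the groups overlapped. The log2 fold change was -0.22 (95% interval -0.45 to 0.01; edgeR adjusted p = 0.162). It passed the threshold without control replicate 2 and with that library corrected per chromosome, where it was -0.28 in each (edgeR adjusted p = 0.0438 and 0.031). The correction has the same limit as for HIST1H2AG. Only 25.9% of its annotated 50-base stretches were found in no other gene, so its level is uncertain.

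HIST1H2BD and HIST1H2BN, the next H2B genes by reads, did not differ beyond the spread. HIST1H2BD had 7.25, 4.39 and 8.36 CPM in libraries labelled KO, against 8.38, 6.58 and 6.86 CPM in controls, with KO replicate 2 lowest of all 6. Its log2 fold change was -0.12 (95% interval -0.61 to 0.36). HIST1H2BN had 5.13, 5.32 and 4.57 CPM in libraries labelled KO, against 4.56, 4.41 and 5.14 CPM in controls, with a log2 fold change of 0.09 (95% interval -0.22 to 0.41). Without control replicate 2 the log2 fold changes of HIST1H2BD and HIST1H2BN were -0.19 and 0.05. The intervals with all libraries did not reach the value fitted for HIST1H2AC, -0.65, which had its own 95% interval of -0.90 to -0.40. The difference between these genes was not tested.

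The remaining H2B rows had between 35 and 82 reads each over all libraries. HIST2H2BC, a pseudogene row on chromosome 1, had 0.725, 0.354 and 0.850 CPM in libraries labelled KO, against 1.05, 1.05 and 1.42 CPM in controls. The groups did not overlap, but the log2 fold change of -0.83 (SE 0.34) did not pass (edgeR adjusted p = 0.122). In GENCODE release 29, 30.9% of its exon bases are shared with the antisense HIST2H2BD row, so reads of that pair cannot be told apart without strand. HIST1H2BC had 3, 6 and 6 reads in libraries labelled KO, against 7, 11 and 10 in controls, also without overlap (log2 fold change -0.92, SE 0.42; edgeR adjusted p = 0.167), and its log2 fold change was -0.80 without control replicate 2. HIST2H2BF, HIST2H2BD and HIST1H2BJ had log2 fold changes of -0.58, -0.45 and -0.21 with standard errors of 0.40 to 0.52 and overlapping groups, and HIST1H2BJ had -0.43 without control replicate 2.

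The H3 and H4 members did not differ beyond the spread. HIST1H3E had 2.05, 1.98 and 2.61 CPM in libraries labelled KO, against 2.10, 1.65 and 3.35 CPM in controls, a log2 fold change of -0.07 (95% interval -0.69 to 0.55), and -0.27 without control replicate 2. Control replicates 2 and 3 were the lowest and the highest of the 6 libraries. HIST1H3H had 15 reads in the libraries labelled KO and 16 in the controls, a log2 fold change of -0.12, and 0.10 without control replicate 2. HIST4H4, the H4 gene on chromosome 12, had 5, 6 and 7 reads in libraries labelled KO, against 5, 17 and 6 in controls. Its log2 fold change of -0.66 (SE 0.52) rested on control replicate 2 and was 0.07 without it.

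Several members stand head to head with a partner that starts close by on the other strand. In the pair HIST1H2AC and HIST1H2BC, whose shared promoter is printed above, the log2 fold changes were -0.65 and -0.92. In the pair HIST1H2AG and HIST1H2BJ they were -1.16 and -0.21, with standard errors of 0.38 and 0.40. In the pair HIST1H2BN and HIST1H2AK they were 0.09 and 0.54, with standard errors of 0.14 and 0.52. These are the 2 members above 0, and HIST1H2AK had 30 reads in all. The difference within a pair was not tested. The partners of HIST2H2BE and HIST3H2A did not reach 30 reads: HIST2H2AC had 5 reads in libraries labelled KO and 8 in controls, and HIST3H2BB had 6 and 8.

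**Figure D4:**
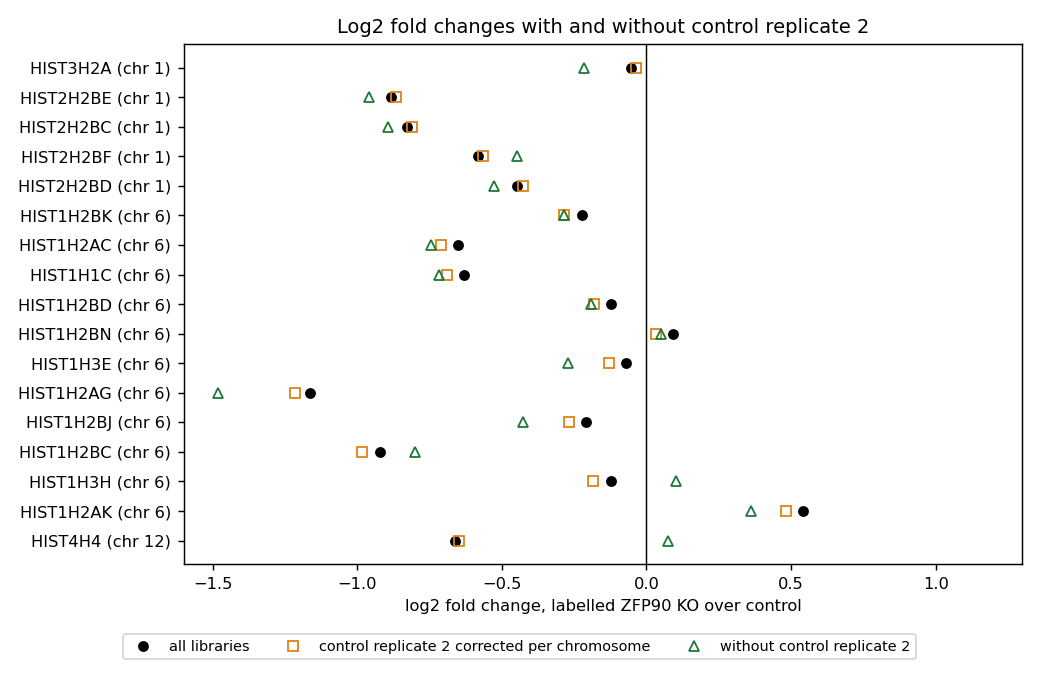
Log2 fold change of each of the 17 genes with all libraries (filled circles), with control replicate 2 corrected per chromosome (open squares) and without control replicate 2 (open triangles), grouped by chromosome. The correction moves the chromosome 6 genes down slightly, HIST1H2AG is lowest without control replicate 2 at -1.48, and HIST4H4 and HIST1H3H cross 0 without it.

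Per kilobase of annotated exon, the highest mean levels were those of HIST1H2BK (43.7 CPM per kb in libraries labelled KO and 51.04 in controls), HIST1H1C (11.6 and 17.98), HIST1H2BD (7.66 and 8.35) and HIST1H2AC (7.36 and 11.6). The lengths are from GENCODE release 29, whereas the counts were made on an annotation of another build, and for HIST1H2BK and HIST1H1C they cover a single short transcript, so this order is approximate. In CPM, 2 members lay above the median of all genes tested, 14.7 CPM, and the median member was at 1.49 CPM.

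Just inside the minimum stood HIST1H2AK with 30 reads and HIST1H3H with 31, and just outside HIST1H4I with 27 and HIST1H4K with 23. The 38 rows with 1 to 29 reads together held 26, 28 and 41 reads in libraries labelled KO, against 53, 54 and 45 in controls. A further 34 rows had 0 reads in every library. Of these, 21 had at least 90% of their 50-base stretches in no other gene, among them HIST1H2BG, HIST1H3C and HIST1H4L.

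Other histone genes and the proteins that make, carry and process histone RNA were read from lists chosen with earlier results known, in the same test. The replication-independent histones, whose mRNAs are ordinarily polyadenylated, moved in both directions: of 12 genes 3 rose and 1 fell, with a median log2 fold change of 0.10. For this and the following lists, the counts stand beside 8.65% of all genes tested called higher and 10.2% called lower, and a median over all genes of 0.01. H2AFX, which encodes the variant phosphorylated at DNA breaks, had 57.2, 62.7 and 55.9 CPM in libraries labelled KO, against 38.4, 45.9 and 38.9 CPM in controls, and rose by 0.51 (SE 0.08; edgeR adjusted p = 0.00325). H2AFZ, the variant found around transcription starts, rose by 0.23 and its close relative H2AFV by 0.22, both not called when scaled by library size alone, where 1 gene of the list was higher. The call of H2AFV was also lost with DESeq2 (adjusted p = 0.0706), with the TMM factors chosen after seeing the data (edgeR adjusted p = 0.0554), and without KO replicate 1, 2 or 3 or control replicate 1 (edgeR adjusted p from 0.0804 to 0.128). With control replicate 2 corrected per chromosome, H2AFV had a log2 fold change of 0.12 (edgeR adjusted p = 0.086). H2AFJ, an H2A variant gene, fell by 0.61 (SE 0.11; edgeR adjusted p = 0.007), with 6.28, 7.02 and 7.19 CPM in libraries labelled KO, against 9.68, 11.2 and 10.4 CPM in controls.

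Other core members of that list did not pass. H1F0, the replacement linker histone, had 918, 972 and 881 CPM in libraries labelled KO, against 1010, 1119 and 1008 CPM in controls (log2 fold change -0.18, SE 0.06; edgeR adjusted p = 0.078), and was called lower with the replicate block, limma-voom, no count filter and the chromosome correction. The replacement H3 gene H3F3B had a log2 fold change of 0.22 (edgeR adjusted p = 0.052) and was called higher under 6 of the alternatives. H3F3A, with near-identical copies elsewhere in the genome, had -0.42 and CENPA, the centromeric H3, 0.26. Without control replicate 2, CENPA was called higher (0.49; edgeR adjusted p = 0.0119) and the list had 5 genes higher and 1 lower.

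Genes for histone transcription and mRNA processing had a median log2 fold change of 0.09, with 4 of 21 higher and 1 lower. NPAT, the coactivator of histone genes, and SLBP were not called, at 0.04 (SE 0.07) and -0.13 (SE 0.08). SYMPK, a scaffold of the cleavage complex, rose by 0.22, SNRPD3 of the spliceosomal core and of the histone-processing particle by 0.24, and the stem-loop exonuclease gene ERI1 by 0.44. ERI1 had 134.9, 144.6 and 157.4 CPM in libraries labelled KO, against 116.9, 85.03 and 119.3 CPM in controls, with control replicate 2 lowest. With any 1 library left out, its log2 fold change lay between 0.30 and 0.53. MIF4GD, an SLBP-binding translation factor, fell by 0.36 (SE 0.07; edgeR adjusted p = 0.009). The number higher was 1 without KO replicate 1, 0 without KO replicate 3 and 2 without control replicate 1 or 3, and 2 were lower without control replicate 2. SYMPK and SNRPD3 were not called when scaled by library size alone. The call of SYMPK was lost without KO replicate 3 or control replicate 1, that of ERI1 without KO replicate 1, 2 or 3, and that of SNRPD3 without any library other than KO replicate 2 or control replicate 2, as well as with the replicate block, upper-quartile scaling and DESeq2.

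Histone chaperones had a median of 0.15, with 4 of 20 higher and 0 lower, where 8.65% of all genes tested were called higher and 10.2% lower. HJURP, the chaperone of CENPA, rose by 0.75 (SE 0.18; edgeR adjusted p = 0.018), ASF1B by 0.52, ASF1A by 0.38 and DAXX, a chaperone of replacement H3, by 0.35. The call of HJURP was lost without KO replicate 1 or 2 or control replicate 1 or 3 (edgeR adjusted p from 0.0558 to 0.0736), and ASF1B was not called when scaled by library size alone. The call of ASF1A was lost without KO replicate 1, 2 or 3, and that of ASF1B without any library other than control replicate 2. The number higher was 1 without KO replicate 1 or 2, 2 without KO replicate 3 or control replicate 1 or 3, and 11 without control replicate 2, where 1 was also lower. Over all genes, 2228 were higher and 2370 lower without control replicate 2, against 1577 and 1855 with all libraries.

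Of 20 genes of S-phase entry and replication 5 rose and 0 fell, with a median of 0.19, where 8.65% of all genes tested were called higher and 10.2% lower. RRM2 of ribonucleotide reductase rose by 1.00, MCM7 of the replicative helicase by 0.43, thymidine kinase TK1 by 0.45 and the loading factor CDC6 by 0.28, of which TK1 and CDC6 were not called when scaled by library size alone. The call of TK1 was also lost with the replicate block and without any library other than control replicate 2, and that of CDC6 without KO replicate 1. E2F1, CCNE1 and CCNE2, which drive entry into S phase, were not called, at -0.05, -0.12 and 0.01. The number higher was 2 without KO replicate 1, 3 without KO replicate 2 or 3 or control replicate 3, and 10 without control replicate 2. All genes higher without control replicate 2 numbered 2228, against 1577 with all libraries. Of 10 genes linked to cell cycle exit 0 passed in either direction, at a median of -0.17. There, 1 was lower without KO replicate 2 and 4 without control replicate 2. All genes lower at these settings numbered 1362 and 2370.

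Non-histone genes that lie within the chromosome 6 histone cluster were compared as neighbours. Of 18 listed, 13 reached 30 reads, and of these 3 fell and 0 rose, with a median of -0.10, where 10.2% of all genes tested were called lower. Without KO replicate 1, 2 were lower. The butyrophilin gene BTN3A3 had 3.93, 4.39 and 4.12 CPM in libraries labelled KO, against 8.26, 7.96 and 6.48 CPM in controls, and fell by 0.87 (SE 0.14; edgeR adjusted p = 0.003). HFE and the serine protease gene PRSS16 fell by 0.55 and 0.42, the call of HFE being lost without KO replicate 1 (edgeR adjusted p = 0.054). TRIM38, BTN2A1 and HMGN4 had -0.14, 0.10 and -0.10.

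**Figure D5:**
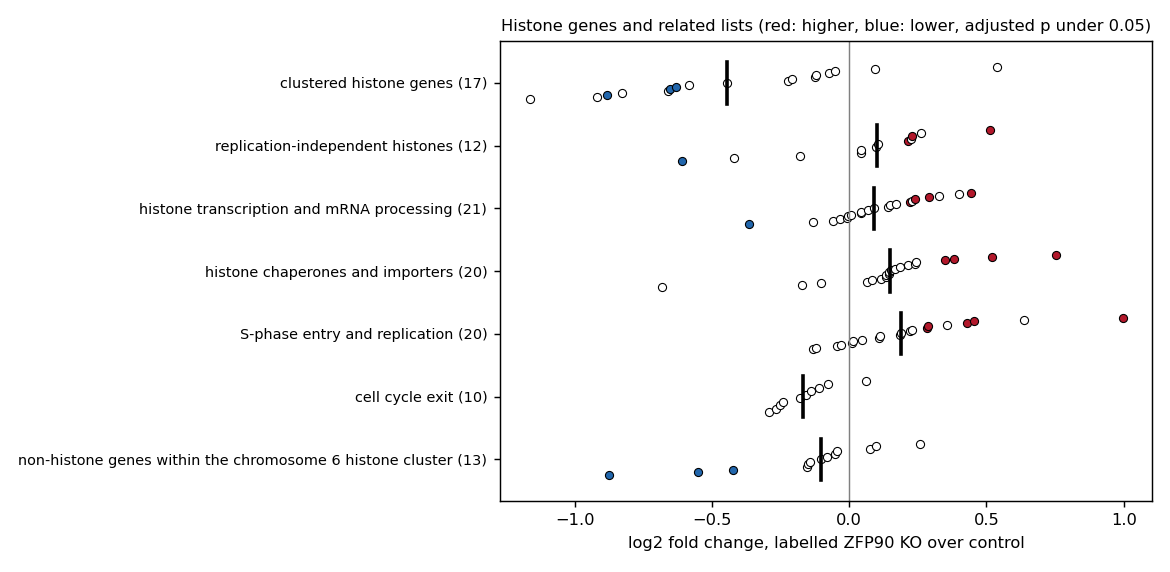
Log2 fold changes, libraries labelled ZFP90 KO over control, of the 17 clustered histone genes and of 6 lists of related genes, with black bars for medians and filled points where the adjusted p was under 0.05. The histone genes have the lowest median, -0.45, though it is -0.22 for the 9 of them with over 100 reads. The chaperone and S-phase lists lie mostly above 0 with no gene called lower.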

How the data were processed

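The authors deposited a table for each library that pairs gene symbols with raw read counts. Per the submitters' processing notes the tools were TopHat2 2.0.11 and HTSeq with the builds hg19 and GRCh37; for the counting mode and strand, nothing is given in the sources used here. Summary lines naming no gene held 31.7% to 32.37% of listed reads and were left out. Genes with 30 or more reads over the 6 libraries (18224) were tested with edgeR 4.0.16 (R 4.3.3; quasi-likelihood test, TMM scaling, Benjamini-Hochberg adjusted p under 0.05), a filter blind to group that keeps every member in the test. CPM used TMM-scaled library sizes; fold changes are KO over control. Positions and transcripts came from GENCODE release 29 (GRCh38), promoters from RefSeq, matched by symbol or synonym. Per-gene values are given for called members, the 10 with most reads, core pathway genes and up to 4 called genes per list. Members and lists were chosen with earlier results of these data known. Replicates of a group differed beyond sampling noise (chi-square per degree of freedom 2.08 to 17.84). The fit was tested on simulated data. Alternatives were other scalings, filters, tests (DESeq2 1.42.0, limma 3.58.1), a replicate block, a chromosome correction of control replicate 2 and leaving out each library; 1, TMM factors from chromosomes 1 to 5 and 10 to 22, was chosen after seeing the data.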

Additional observations from a re-analysis of the deposited data

How the results depend on the processing

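The falls of HIST1H1C and HIST1H2AC held under every alternative run, with log2 fold changes from -0.72 to -0.52 and from -0.74 to -0.58 as libraries were left out. Members lower numbered 5 without control replicate 2 and with its counts corrected per chromosome, against 3 in the analysis reported, and from 2 to 5 when single libraries were dropped. Calls rose over all genes too: 2370 were lower without control replicate 2 and 2520 with the correction, against 1855. The correction takes the chromosome-wide median also for members in the histone cluster. Members higher were 0 throughout. All genes numbered 1855 lower and 1577 higher, from 996 to 2370 and 741 to 2228 with a library left out. They numbered 866 and 629 at an adjusted p under 0.01, and higher genes numbered 1000 with library size alone and 2402 with the correction. No test over the class sums was made, but their log2 ratios were -0.46 to -0.31 for all members, -0.25 to 0.18 for H3 (above 0 at 0.178 without control replicate 3) and -0.99 to 0.06 for H4 (0.064 without control replicate 2).

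The lists moved more. Their counts stand beside those of all genes at the same setting. Without control replicate 2 these were 2228 higher and 2370 lower, and with the correction 2402 higher and 2520 lower. Replication-independent histones numbered 2 lower with the replicate block, the correction, no filter and limma-voom, 1 higher with library size alone, and 2 to 5 higher with a library left out. Processing genes numbered 1 higher with library size alone, 7 with no filter, 2 with DESeq2, 0 at the stricter threshold, and 0 to 6 higher and 1 to 2 lower with a library left out. Chaperones numbered 9 higher and 1 lower with the correction, 1 lower with library size alone, 7 higher with limma-voom, 8 with the TMM factors chosen after seeing the data, 1 at the stricter threshold, and 1 to 11 higher and 0 to 1 lower with a library left out. S-phase genes numbered 2 higher with library size alone, 8 with no filter, 3 at the stricter threshold and 2 to 10 with a library left out. Cell cycle exit genes numbered 2 lower with library size alone, 1 with the replicate block, 1 with no filter, 5 with the correction and 0 to 4 with a library left out. The causes were not tested.

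Same-numbered libraries had deviations correlated at -0.003, 0.117 and 0.039, so the numbers were not taken to pair them. With the replicate block 1849 genes were lower and 1635 higher and 4 members were lower, HIST1H2AG being added. Library size alone shifted the median of all genes to -0.06. Depth limits the 8 members with under 100 reads.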
